A study of Rattus norvegicus with 24 samples.

Results

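The Period genes Per1, Per2 and Per3 and the cryptochrome genes Cry1 and Cry2, the repressors of the circadian clock, were followed in 3 tissues of fed and fasted rats. Every probe set of the array annotated to 1 of these 5 symbols and to no other was taken, which gave 5 genes of 14217 named ones, with 8 probe sets (5 for the Period genes and 3 for the cryptochromes) of 31042 in all. The genes were chosen from fasting differences already known in these same arrays, so fed and fasted values are given as a description, with no test. In the clock of mammals, the activators BMAL1 and CLOCK bind E-box sequences and switch on the Per and Cry genes, whose protein products join, return to the nucleus and silence those same activators. Liver and fat each run such a clock, and the time of feeding is known to set the one in the liver. Per1 and Per2 are also known to respond directly to hormones such as glucocorticoids.

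The rats were male Wistar animals, an outbred laboratory strain, 7 weeks old at the start and 8 weeks old when sampled. All of them had food from hour 10 to hour 16 of the day for 7 days and water at all times. On day 8 the fed group (animals 1, 2, 4 and 5) received food at hour 10 again and the fasted group (animals 6, 8, 9 and 10) did not, so that the fasted rats had gone 24 h without food at hour 16. Interscapular brown adipose tissue (BAT, the heat-producing fat between the shoulder blades), perinephric white adipose tissue (WAT, which stores fat beside the kidney) and liver were then taken, with 1 array per animal and tissue: 24 arrays in 6 groups of 4, each array of a group from its own animal. Arrays with the same animal number are treated as 1 rat, on the series' statement that the 3 tissues came from each group's animals and not on any label in so many words. All tissues were taken at hour 16, so a shift in the time of a rhythm and a change in its level cannot be told apart. In a piece of tissue, fewer cells of a type and less RNA per cell cannot be told apart either.

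Signals are intensities computed with MAS5, the array maker's algorithm, scaled here so that every array had a 2% trimmed mean of 129 (93.4 to 206 before). Signals are printed as mean ± SD. Log2 differences are fasted minus fed on the log2(signal + 1.9) scale, which understates the differences of dim probe sets. Ucp1, the uncoupling protein of brown fat, had a signal of 11463 ± 1319 in fed BAT and 11.5 ± 9.90 in fed WAT (n = 4 each). Cidea, the other brown fat marker, stood less apart, with 9093 ± 993 in fed BAT and 2539 ± 533 in fed WAT (n = 4 each). Apoa1, a lipoprotein gene of liver, had 6458 ± 689 in fed liver and 13.2 ± 10.1 in fed BAT (n = 4 each). The liver marker Tat had 1315 ± 486 in fed liver and 0.98 ± 0.50 in fed BAT. The liver marker Alb stood less apart, with 11414 ± 1527 in fed liver, 2458 ± 370 in fed BAT and 1925 ± 494 in fed WAT (n = 4 each). Skeletal muscle markers stood apart in the fat samples. Their summed signal (13 of 14 genes on the array) was 680 to 2142 in fed BAT animals 1, 2 and 4, 50012 in fed BAT animal 5 and 59351 to 74330 in fasted BAT. It was 186 to 414 in WAT apart from fasted animals 8 and 10, which had 33493 and 60431, and 55.3 to 108 in liver. Of the 13, all 13 were higher in every fasted BAT array than in every fed one, and 3 were so in WAT. Fasting differences in WAT are given below also without the muscle-rich arrays. In BAT all fasted arrays are muscle-rich, so muscle level and fasting cannot be told apart there.

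RefSeq promoters (250 bases before to 50 after a gene's start, assembly GRCr8) were matched for 4 of the 5 genes, Cry1 not among them. They were searched on both strands for the E-box CACGTG, the variant E-box CACGTT, the D-box TTATGNAA, the cAMP element TGACGTCA and the glucocorticoid element; none of these motifs overlapped another in these promoters. Per2 and Cry2 are shown because clock motifs were found in them and because Per2 is the gene whose fasting difference ran opposite ways in fat and liver. Capitals mark the D-box (first) and the variant E-box (second) in Per2, and the variant E-box, which lies on the other strand, in Cry2.
Per2 promoter, chr9:99496944-99497243, minus strand: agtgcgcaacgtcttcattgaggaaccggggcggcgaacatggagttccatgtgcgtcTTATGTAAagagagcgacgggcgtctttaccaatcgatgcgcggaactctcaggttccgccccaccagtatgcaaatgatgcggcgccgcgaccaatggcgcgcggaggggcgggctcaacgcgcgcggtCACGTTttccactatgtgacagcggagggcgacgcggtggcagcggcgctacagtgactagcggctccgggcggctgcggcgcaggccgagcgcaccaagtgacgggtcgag
Cry2 promoter, chr3:98860388-98860687, minus strand: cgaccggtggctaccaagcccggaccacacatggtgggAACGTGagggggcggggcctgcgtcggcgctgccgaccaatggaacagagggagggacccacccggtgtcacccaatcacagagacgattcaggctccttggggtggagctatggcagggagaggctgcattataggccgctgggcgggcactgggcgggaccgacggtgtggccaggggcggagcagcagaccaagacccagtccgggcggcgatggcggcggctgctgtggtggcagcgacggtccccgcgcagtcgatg
In Per2 the D-box lies at -192 to -185 and the variant E-box at -62 to -57, counted from the start used for its window. That start lies 76 bases inside the outermost annotated start of Per2, so the variant E-box lies within the annotated gene. In Cry2 the variant E-box lies at -212 to -207, counted from the outermost annotated start. Of 33469 promoters of the same length, 4.83% held the variant E-box, 3.66% the D-box, 6.42% the E-box CACGTG, 1.83% the cAMP element and 0.439% the glucocorticoid element. None of the 5 motifs was found in the promoters listed for Per1 and Per3, whose windows begin from starts 5374 and 443 bases inside the outermost annotated start of the gene. In GRCr8, Per1 spans chromosome 10 from 54299002 to 54313804, Per2 chromosome 9 from 99454828 to 99497069, Per3 chromosome 5 from 166740914 to 166778243, Cry1 chromosome 7 from 20417526 to 20481791 and Cry2 chromosome 3 from 98830479 to 98860437.

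Per2, a Period gene whose protein also binds nuclear receptors, was higher after fasting in both fats and lower after fasting in liver. On its brighter probe set (1368303_at), fed BAT had signals of 147, 189, 178 and 210 in animals 1, 2, 4 and 5, and fasted BAT had 335, 560, 456 and 443 in animals 6, 8, 9 and 10; values below keep this order of animals. Every fasted BAT array was above every fed one, and the means were 181 ± 26.2 and 449 ± 92.1 (n = 4 each), a log2 difference of 1.29 ± 0.19 (SE). In WAT the fed signals were 211, 221, 332 and 347 and the fasted ones 413, 569, 593 and 374. Again no fasted array overlapped the fed ones, with a smaller log2 difference of 0.81 ± 0.25 (SE, n = 4 per group). In liver the fed signals were 932, 1025, 1076 and 963.5 and the fasted ones 383, 480, 416 and 456. Every fasted liver was below every fed liver, with means of 434 ± 43.1 against 999 ± 64.1 (n = 4 each) and a log2 difference of -1.20 ± 0.09 (SE), so the fed level was 2.30 times the fasted one.

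Across the 6 groups, fed liver had the highest Per2 level, without overlap with the next. Fasted WAT (487 ± 110), fasted BAT (449 ± 92.1) and fasted liver (434 ± 43.1) followed and overlapped one another (n = 4 each). Fed WAT (278 ± 71.9) and fed BAT (181 ± 26.2) were lowest, each without overlap with its neighbours (n = 4 each). The 3 fasted tissues thus lay within each other's spread, while the 3 fed tissues did not overlap. Fed BAT and fed WAT nearly met, at 209.6 in the muscle-rich fed BAT animal 5 and 210.7 in fed WAT animal 1. The difference of the Per2 fasting effect was 2.49 ± 0.20 (SE) on the log2 scale between BAT and liver, 2.02 ± 0.27 between WAT and liver and 0.48 ± 0.31 between BAT and WAT (n = 4 per group); these were not tested. Of all 31042 probe sets, 20 (0.0644%) were higher without overlap in both fats and lower without overlap in liver, the pattern of this Per2 probe set, and 327 (1.05%) were higher without overlap in all 3 tissues, the pattern of the Per3 probe set 1378745_at described below.

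The second Per2 probe set (1378560_at) was dim and reached the level needed for testing only in liver. Its fed liver signals were 45.1, 51.5, 58.5 and 65.0 and its fasted ones 8.61, 8.11, 5.13 and 4.66. It too was lower in every fasted liver, at 6.62 ± 2.02 against 55.0 ± 8.63 (n = 4 each). The fasted signals were near the pseudocount, and the log2 difference of -2.76 ± 0.21 (SE) was -1.65 with a pseudocount of 16. In the fats its signals ran from 2.79 to 33.2, the groups overlapped and the log2 differences were -0.14 ± 0.73 in BAT and 0.52 ± 0.56 in WAT (SE, n = 4 per group). The probe sets of Per2 therefore ran the same way in liver, while in fat the dim one did not show the difference of the bright one.

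**Figure D1:**
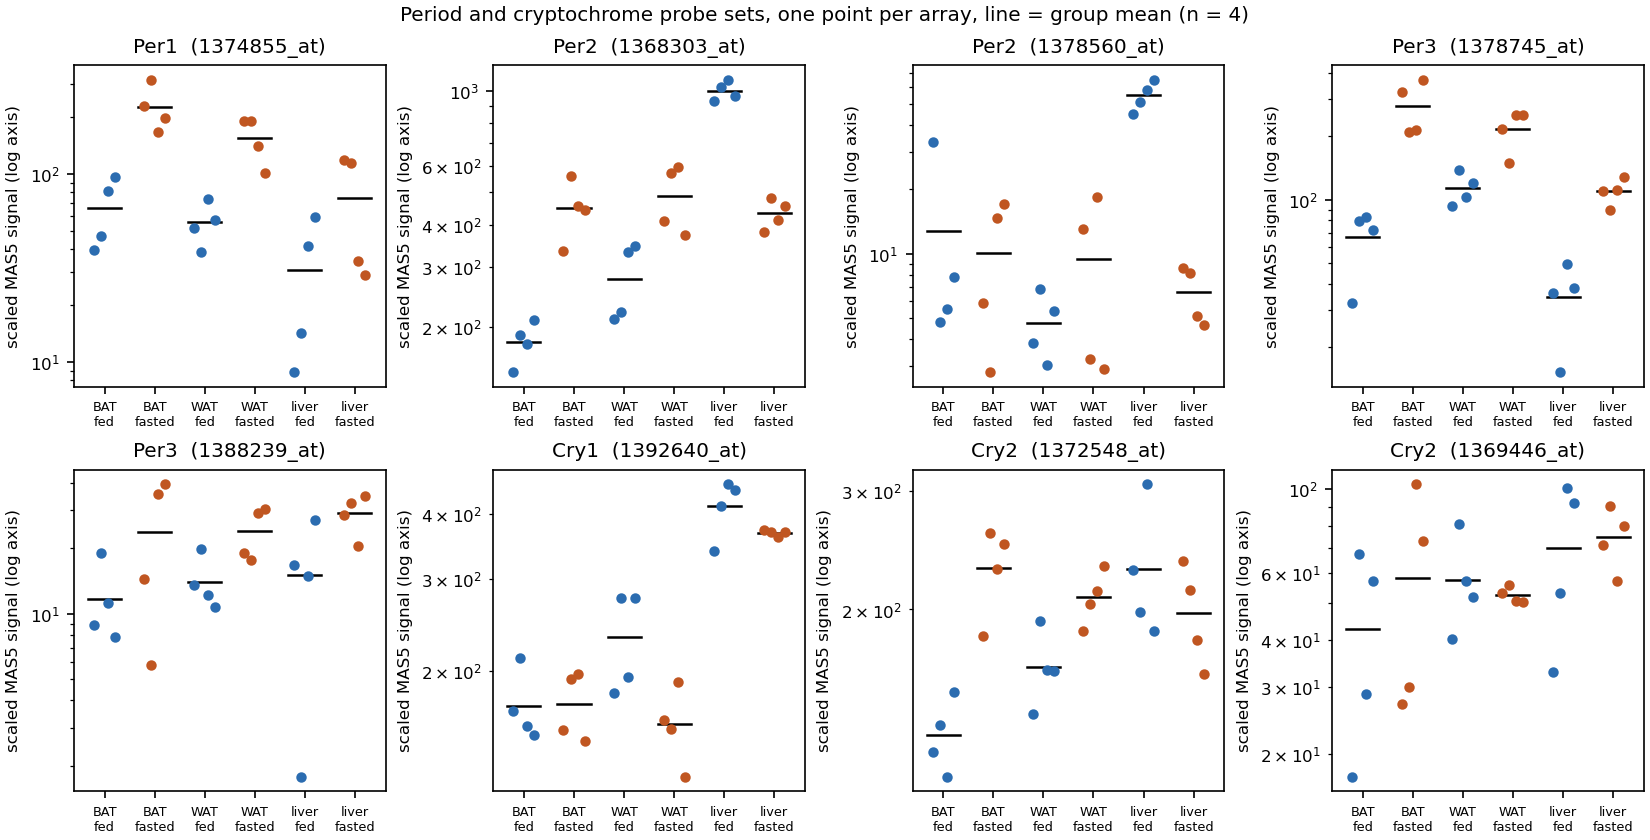
Scaled MAS5 signal (log axis) of the 8 Period and cryptochrome probe sets in each array, by tissue and feeding (blue fed, orange fasted, line at the mean of 4 arrays). The Per2 probe set 1368303_at sits between 932 and 1076 in fed liver and between 383 and 480 in fasted liver, while its fasted arrays lie above the fed ones in BAT and WAT.

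Per1, the Period gene known for its quick response to light and hormones, was higher after fasting in both fats. Its signals on probe set 1374855_at were 39.7, 47.0, 80.8 and 96.3 in fed BAT and 229, 316, 167 and 197 in fasted BAT. In WAT they were 51.6, 38.5, 73.7 and 57.2 in fed and 190.2, 191, 141 and 101 in fasted animals. The fasted arrays did not overlap the fed ones in either fat, with log2 differences of 1.81 ± 0.35 in BAT and 1.46 ± 0.29 in WAT (SE, n = 4 per group). In liver the fed signals were 8.84, 14.3, 41.4 and 58.9 and the fasted ones 119, 115, 34.5 and 29.0. Fasted animals 6 and 8 were above all fed livers, fasted animals 9 and 10 lay among them, and the log2 difference was 1.28 ± 0.79 (SE, n = 4 per group). The liver arrays were scanned on 2 days of 2 fed and 2 fasted arrays each: the log2 difference was 0.09 on the day that held animals 2, 5, 9 and 10 and 2.46 on the day that held animals 1, 4, 6 and 8. The order of the Per1 group means ran from fasted BAT (227 ± 64.2) through fasted WAT (156 ± 43.4), fasted liver (74.4 ± 49.3), fed BAT (65.9 ± 27.0) and fed WAT (55.2 ± 14.6) to fed liver (30.9 ± 23.5; n = 4 each). Each of these groups overlapped the next.

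Per3, a Period gene whose loss leaves the mouse clock largely running, was higher after fasting in all 3 tissues on its brighter probe set (1378745_at). The signals were 32.5, 79.5, 82.7 and 71.8 in fed BAT and 324, 209, 215 and 371 in fasted BAT. In WAT they were 93.7, 138, 103 and 119.8 in fed and 216, 149.6, 252 and 252 in fasted animals. In liver they were 36.2, 15.2, 49.4 and 38.1 in fed and 109.8, 89.5, 111 and 129 in fasted animals. No fasted array overlapped a fed one in any tissue, although fasted WAT animal 8 and fed WAT animal 2 were close. The log2 differences were 2.08 ± 0.37 in BAT, 0.91 ± 0.21 in WAT and 1.71 ± 0.36 in liver (SE, n = 4 per group). The liver difference was 2.22 on the first scan day and 1.19 on the second. The group means were 280 ± 80.7 in fasted BAT and 217 ± 48.3 in fasted WAT, which overlapped. They were followed without overlap by fed WAT (114 ± 19.5) and fasted liver (109.9 ± 16.2), which overlapped, and then by fed BAT (66.6 ± 23.2) and fed liver (34.7 ± 14.3), which overlapped (n = 4 each). The second Per3 probe set (1388239_at) was dim, with signals of 1.79 to 39.5, and its groups overlapped in every tissue. Its log2 differences were 0.69 ± 0.62 in BAT, 0.70 ± 0.25 in WAT and 1.17 ± 0.67 in liver (SE, n = 4 per group), above 0 like those of the bright one.

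Cry1, the cryptochrome known in mice for keeping the clock's period long, had similar levels in fed and fasted BAT. Its signals on probe set 1392640_at were 168, 212, 157 and 151 in fed and 154.5, 193, 198 and 147 in fasted BAT, a log2 difference of 0.01 ± 0.15 (SE, n = 4 per group). In WAT they were 182, 276, 195 and 277 in fed and 161, 155, 191 and 126 in fasted animals. These groups overlapped through fed animal 1 and fasted animal 9, with a log2 difference of -0.54 ± 0.20 (SE, n = 4 per group). That WAT difference was -1.13 on the scan day with 1 fasted array (animal 10) and -0.25 on the day with 2 fed and 2 fasted arrays. In liver the fed signals were 341, 414, 457 and 444.5 and the fasted ones 373, 369, 361 and 369.8. Fed animal 1 lay below the fasted arrays and the other 3 fed animals above them, with a log2 difference of -0.16 ± 0.10 (SE, n = 4 per group). Both liver groups (414 ± 52.0 fed, 368 ± 5.00 fasted) overlapped each other and lay above every fat array. Fed WAT (233 ± 51.2), fasted BAT (173 ± 26.2), fed BAT (172 ± 27.6) and fasted WAT (158 ± 26.6) followed, each overlapping the next (n = 4 each).

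Cry2, the second cryptochrome repressor, was higher after fasting in BAT. On its brighter probe set (1372548_at) the signals were 123, 135, 113 and 151 in fed and 182, 259.5, 230 and 250.2 in fasted BAT. No fasted array overlapped a fed one, with means of 130 ± 16.4 and 231 ± 34.4 (n = 4 each) and a log2 difference of 0.81 ± 0.14 (SE). In WAT the signals were 139.8, 192, 162 and 162 in fed and 186, 204, 213 and 232 in fasted animals. Only fed animal 2 reached into the fasted range, and the log2 difference was 0.35 ± 0.11 (SE, n = 4 per group). In liver the fed signals were 229, 198, 307 and 186 and the fasted ones 236, 214, 180 and 160.2. The liver groups overlapped, with a log2 difference of -0.21 ± 0.20 (SE, n = 4 per group). Fasted BAT (231 ± 34.4), fed liver (229.9 ± 54.5), fasted WAT (209 ± 19.3), fasted liver (198 ± 33.7), fed WAT (164 ± 21.5) and fed BAT (130 ± 16.4) formed the order of means, and each overlapped the next (n = 4 each). The second Cry2 probe set (1369446_at) had signals of 17.4 to 103 and overlapping groups everywhere. Its log2 differences were 0.40 ± 0.63 in BAT, -0.08 ± 0.21 in WAT and 0.20 ± 0.39 in liver (SE, n = 4 per group), so the BAT difference of the brighter probe set was not seen on it beyond its spread.

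**Figure D2:**
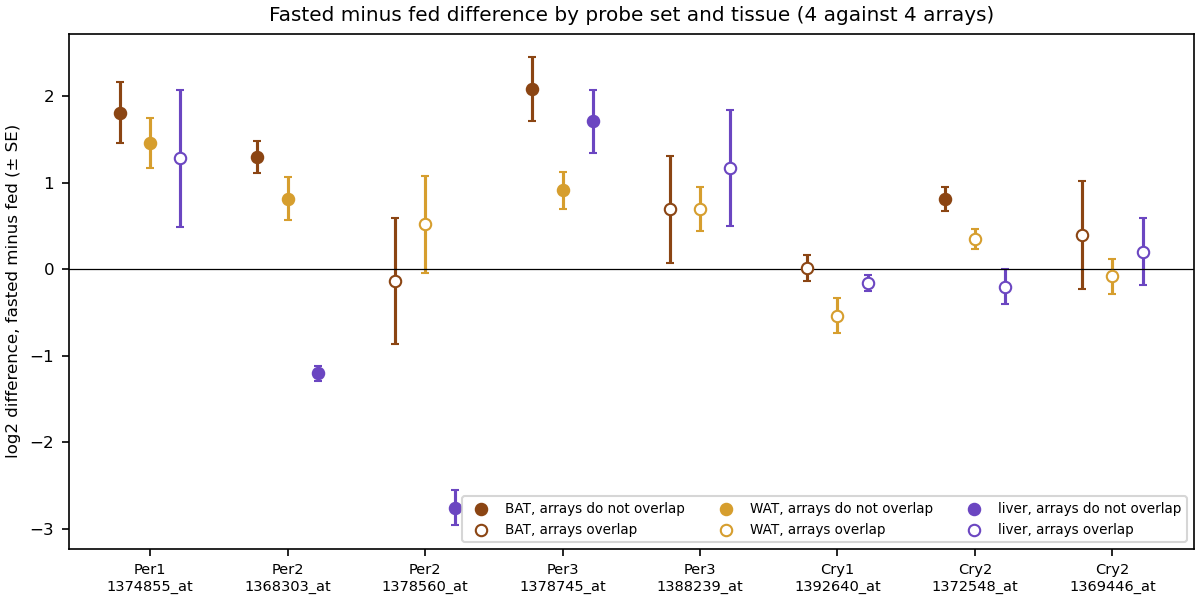
Log2 difference of fasted minus fed arrays (± SE, 4 against 4 arrays) for each probe set in BAT, WAT and liver; filled points mark groups whose arrays do not overlap. Per2 is the gene with filled points on both sides of 0: 1.29 in BAT and 0.81 in WAT against -1.20 in liver on 1368303_at.

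Counted over the 8 probe sets, 4 were higher without overlap in fasted BAT (Per1, Per2, Per3 and Cry2) and 0 lower. Of all 31042 probe sets, 8.23% were higher and 8.03% lower in this way in BAT. In WAT 3 were higher (Per1, Per2 and Per3) and 0 lower, beside 7.08% and 7.02% of all probe sets. With median centring, which moved the median WAT difference of all probe sets by -0.11, 1 of the 8 was higher without overlap, and without fed WAT animal 2 there were 5. In liver 1 was higher (Per3) and 2 were lower (both for Per2), beside 7.48% and 6.05%. The liver count of higher probe sets was 2 without fed animal 5 and 2 without fasted animal 9. The WAT count of lower ones was 1 without fed animal 1 and 1 without fasted animal 9. The genes were chosen with these contrasts known, so nothing is read from the counts.

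BAT and liver were each scanned on 2 days with 2 fed and 2 fasted arrays a day, and WAT on the same plan except that fasted animal 9 was scanned alone. Within the scan days of BAT the log2 differences were 1.41 and 2.21 for Per1, 1.17 and 1.41 for Per2, 1.88 and 2.28 for Per3 and 0.74 and 0.88 for Cry2 on the brighter probe sets. In WAT they were 1.08 and 1.60 for Per1, 0.43 and 0.87 for Per2 and 0.96 and 0.86 for Per3. For Per2 in liver they were -1.19 and -1.22 on the brighter and -3.14 and -2.38 on the dim probe set. Every one of these had the sign of its pooled value.

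The muscle-rich fed BAT array of animal 5 was the highest of the 4 fed BAT arrays for Per1 (96.3), Per2 (210 on 1368303_at) and Cry2 (151 on 1372548_at) but not for Per3 (71.8 on 1378745_at), and it was below every fasted BAT array for all 4 genes. With it as the only fed array, a choice made after seeing the data, the log2 differences were 1.18 for Per1, 1.07 for Per2, 1.89 for Per3 and 0.59 for Cry2. With the mean log2 of the muscle markers as a covariate they were 1.36, 1.14, 2.22 and 0.58. Without the muscle-rich fasted WAT arrays of animals 8 and 10, also chosen after seeing the data, the WAT differences were 1.57 for Per1, 0.87 for Per2, 1.04 for Per3, -0.38 for Cry1 and 0.28 for Cry2 on the brighter probe sets, and 1.42 in place of 0.52 on the dim one of Per2. The part of muscle in the differences was not tested. Of 11 macrophage markers on the array, 4 were higher without overlap in fasted BAT, 2 in fasted WAT and 4 in fasted liver. Their mean log2 signal was 6.39 in fed and 6.74 in fasted BAT, 7.58 and 7.91 in WAT, and 7.98 and 8.34 in liver. The part of the macrophage markers in these differences was not tested. The log2 ratio of the 3' to the 5' control probe sets of beta-actin, a measure of RNA integrity, was 1.46 ± 0.47 in fed and 0.97 ± 0.09 in fasted BAT, 1.06 ± 0.27 and 1.08 ± 0.26 in WAT, and 1.64 ± 0.33 and 1.80 ± 0.17 in liver (SD, n = 4 each). The same ratio for GAPDH was 0.25 ± 0.02 in fed and 0.29 ± 0.03 in fasted BAT, 0.11 ± 0.04 and 0.03 ± 0.09 in WAT, and 0.47 ± 0.13 and 0.39 ± 0.07 in liver (SD, n = 4 each). Both ratios had higher means in liver than in the fats. The part of RNA integrity in the fasting differences and in the tissue differences below was not tested.

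Tissues were compared on the mean of their fed and fasted groups, a comparison that the fasting differences do not enter. It used limma, which fits a linear model to each probe set and moderates its variance over all of them, with Benjamini-Hochberg adjustment over 18625 probe sets of 24 arrays (two-sided, called where the adjusted p is under 0.05). The main fit did not use the pairing of arrays by animal number, which entered as a block only in an alternative. Of the 8 probe sets, 6 passed the filter on low values, which left out the dim ones of Per2 and Per3. Each tissue was scanned on its own days, 7 in all and 0 shared, so tissue and scan day cannot be told apart. The fits hold the muscle-rich arrays, 5 of the 8 in BAT and 2 of the 8 in WAT, and the part of muscle in the tissue differences was not tested. Values in fed or fasted arrays alone contain part of the fasting difference known when the genes were chosen, so they are given with no p. Scaling matters for the comparisons with liver: over all probe sets the median of BAT minus liver was 0.26, which quantile normalization moved by -0.23 and median centring by -0.33, and that of WAT minus liver was 0.16, moved by -0.18 and -0.40.

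On the probe sets tested, Per1 and Per3 were lower in liver than in either fat, and Per2 and Cry1 were higher in liver. The dim Per3 probe set (1388239_at), left out by the filter, was not lower in liver over both feeding groups. Its signals were 22.1 ± 10.9 in liver, 19.1 ± 7.34 in WAT and 17.8 ± 12.9 in BAT (SD, n = 8 each). These lay within each other's spread. Per1 differed by 1.56 ± 0.33 (SE) on the log2 scale in BAT minus liver (limma, adjusted p = 0.000225) and by 1.19 ± 0.33 in WAT minus liver (adjusted p = 0.00313). Per3 (1378745_at) differed by 1.11 ± 0.21 (adjusted p = 5.20e-05) and 1.35 ± 0.21 (adjusted p = 4.33e-06). Their directions were the same under both other scalings, with smallest values of 0.79 for Per1 in WAT minus liver and 0.79 for Per3 in BAT minus liver. For WAT minus liver, Per1 was at 1.10 in fed and 1.28 in fasted arrays alone. Cry1 differed by -1.18 ± 0.11 in BAT minus liver (adjusted p = 1.16e-09) and by -1.03 ± 0.11 in WAT minus liver (adjusted p = 1.26e-08). Its signals over both feeding groups were 391 ± 42.1 in liver, 195 ± 54.8 in WAT and 173 ± 24.9 in BAT (SD, n = 8 each). The Cry1 differences lay below 0 in fed arrays alone (-1.26 from BAT, -0.84 from WAT) and in fasted arrays alone (-1.09 and -1.22).

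Per2 (1368303_at) differed by -1.22 ± 0.13 in BAT minus liver (limma, adjusted p = 5.59e-09) and by -0.87 ± 0.13 in WAT minus liver (adjusted p = 1.59e-06). These averages joined unlike values, with -2.46 in fed and 0.03 in fasted arrays for BAT minus liver, and -1.87 and 0.14 for WAT minus liver. Per2 was lower in BAT than in WAT by 0.35 ± 0.13 (log2 difference -0.35, adjusted p = 0.0221), which was the 1 call among the 6 probe sets in that comparison. It was -0.59 in fed and -0.11 in fasted arrays alone. The call ended under quantile normalization (-0.29, adjusted p = 0.0673), under median centring (-0.28, adjusted p = 0.0953), without animal 4 (adjusted p = 0.0809) and without animal 9 (adjusted p = 0.0710).

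Cry2 (1372548_at) was lower in BAT than in liver, with a log2 difference of -0.28 ± 0.11 (limma, adjusted p = 0.0296), which was -0.79 in fed and 0.22 in fasted arrays alone and -0.61 under median centring. This call ended without animal 1 (adjusted p = 0.0656), animal 4 (adjusted p = 0.170) or animal 6 (adjusted p = 0.165). The other Cry2 probe set (1369446_at) had a difference of -0.64 ± 0.29 and did not pass (adjusted p = 0.0506), but did with the animal number as a block (adjusted p = 0.0305), under quantile normalization (adjusted p = 0.00779) and under median centring (adjusted p = 0.00252). In WAT minus liver neither Cry2 probe set passed (limma, adjusted p = 0.149 and 0.315). Both did, at -0.35 and -0.67, under quantile normalization and, at -0.59 and -0.73, under median centring. The brighter one was at -0.46 in fed and 0.09 in fasted arrays alone. In all, 1 of the 6 probe sets was called in BAT minus WAT, 5 in BAT minus liver and 4 in WAT minus liver, where 53.2%, 71% and 67.8% of all 18625 probe sets were called. A share of called probe sets this high was the background, so the counts set these genes apart from no others.

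**Figure D3:**
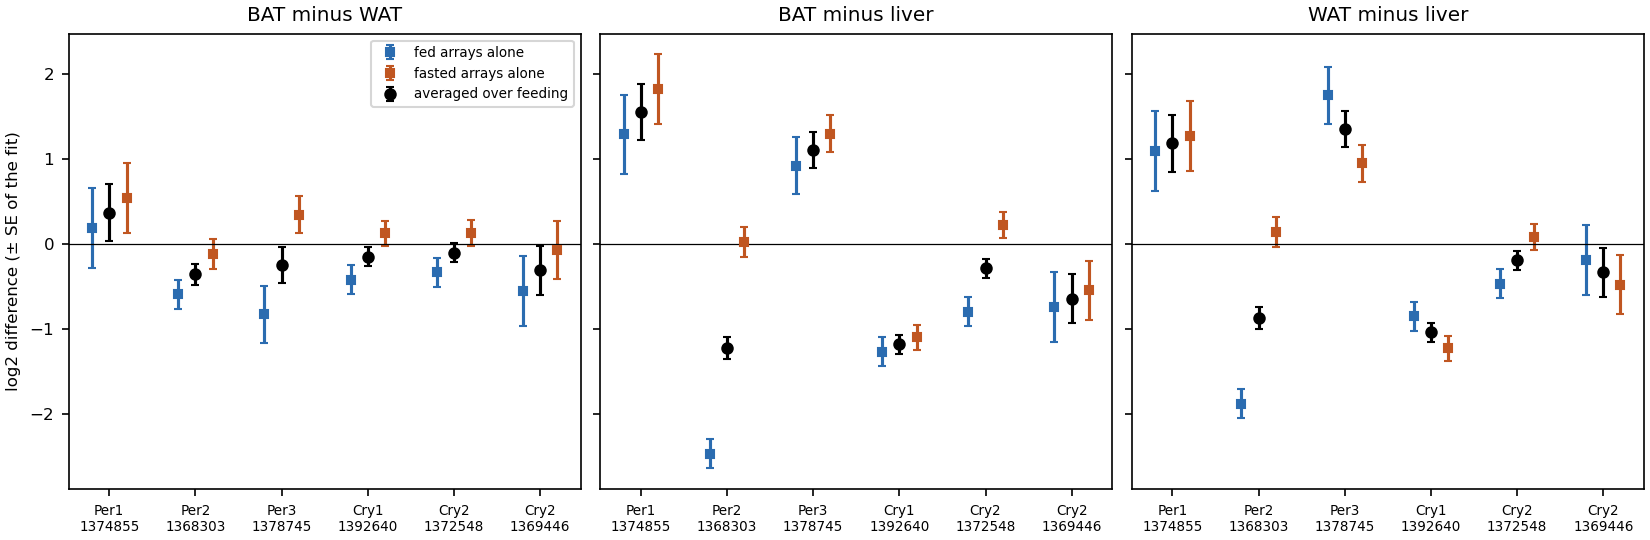
Log2 difference between tissues (± SE of the limma fit) for the 6 probe sets tested, averaged over feeding (black) and in fed (blue) and fasted (orange) arrays alone. Per2 lies at -2.46 in fed and at 0.03 in fasted arrays for BAT minus liver, while the Cry1 values stay between -0.84 and -1.26 in both comparisons with liver.

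Other genes of the clock were taken from a list of 24, of which 20 had a probe set and 17 or 18 per tissue passed the filter. Each was tested for fasted minus fed with limma on the 8 arrays of the tissue. The list too was chosen with earlier results of these data known, so its p-values and calls are a description and no independent support. In BAT 4 rose and 3 fell, while 11 did not pass. The background was 10.2% of all probe sets called higher and 9.69% called lower, and the list's median log2 difference was 0.04 against 0.00 over all. In WAT 1 rose and 4 fell, and 13 did not pass, beside 7.23% and 7.34% of all probe sets and a median of -0.03 against 0.04. In liver 3 rose and 2 fell, and 12 did not pass, beside 7.84% and 6.07% and a median of 0.04 against 0.06. Genes beyond the 3 smallest p-values per tissue are named below after their values were seen.

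Of the activators, partners that switch the Per and Cry genes on, Npas2 fell in both fats and Bmal1 fell in liver. Npas2 had a log2 difference of -1.86 ± 0.38 in WAT (limma, adjusted p = 0.00944), which was -1.57 ± 0.45 without the muscle-rich fasted arrays (adjusted p = 0.0684, with 2 fasted arrays left) and -1.51 ± 0.46 with the muscle covariate (adjusted p = 0.0736). In BAT it was -0.73 ± 0.18 (adjusted p = 0.0189). That BAT call ended without fed animal 2 (adjusted p = 0.0575) and with all 24 arrays in one limma model (adjusted p = 0.355). Clock did not pass in any tissue. Nr1d2, which encodes REV-ERB beta, a nuclear receptor that represses Bmal1, rose in all 3 tissues. Its signal went from 199 ± 17.4 to 424 ± 82.6 in BAT (log2 difference 1.07 ± 0.15, limma, adjusted p = 0.00103) and from 164 ± 41.6 to 520 ± 77.4 in liver (1.67 ± 0.19, adjusted p = 0.000224; n = 4 per group). In WAT its log2 difference was 0.64 ± 0.15 (adjusted p = 0.0156). That WAT call ended without the muscle-rich arrays (0.66 ± 0.18, adjusted p = 0.0583) and when muscle level entered the fit (0.64 ± 0.19, adjusted p = 0.0728), at differences of about the same size. Rora, a receptor that activates Bmal1, rose in BAT by 0.85 ± 0.17 (adjusted p = 0.00693), and Nr1d1, which encodes REV-ERB alpha, rose there too (0.73 ± 0.22, adjusted p = 0.0416). The Nr1d1 call held in 7 of 16 alternatives, with log2 differences of 0.60 to 0.92 and adjusted p-values of 0.0103 to 0.320, and it ended without fed animal 2, 4 or 5 and without fasted animal 6, 9 or 10.

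Bhlhe40, which encodes DEC1, a repressor that competes for E-boxes, fell in all 3 tissues. In WAT its signal went from 367 ± 87.9 to 51.3 ± 8.91 (n = 4 each), with a log2 difference of -2.78 ± 0.19 (limma, adjusted p = 2.64e-05). It was -1.49 ± 0.19 in liver (adjusted p = 0.000536) and -1.04 ± 0.21 in BAT (adjusted p = 0.00728). Its relative Bhlhe41 fell in BAT (-0.98 ± 0.21, adjusted p = 0.00910) and, narrowly and with overlapping groups, in WAT (-0.87 ± 0.26, adjusted p = 0.0499). The BAT call of Bhlhe41 ended with all 24 arrays in one limma model (adjusted p = 0.160). The WAT call held in 4 of 17 alternatives (log2 differences -1.06 to -0.67, adjusted p 0.0187 to 0.257). It ended without fed animal 2, 4 or 5 and without fasted animal 6, 8 or 9. Per2 and Bhlhe40, both repressors of the clock, had differences of the same sign in liver and of opposite sign in fat. Of the clock-driven output factors that bind D-boxes, Dbp rose in liver from 50.4 ± 11.2 to 269 ± 44.4 (n = 4 each; 2.39 ± 0.20, limma, adjusted p = 2.71e-05) and Tef rose in BAT by 0.95 ± 0.19 (adjusted p = 0.00594). Nfil3, which opposes them at the same sites, fell in WAT (log2 difference -1.50 ± 0.25, adjusted p = 0.00386). Of 6 genes for enzymes that phosphorylate, dephosphorylate or tag PER and CRY proteins, Gsk3b rose in liver (0.59 ± 0.16, adjusted p = 0.0287), a call that held in 7 of 16 alternatives (adjusted p 0.0157 to 0.0850) and ended without fed animal 2 or 4 and without any 1 of the fasted animals. The others did not pass in any tissue. With muscle markers (their mean log2) as a covariate, 0 of the list were called higher and 0 lower by limma in BAT, where muscle level and fasting moved together, while 5 were higher and 1 lower at an unadjusted p under 0.05. The BAT differences in that fit were 0.90 ± 0.25 for Nr1d2, 0.89 ± 0.32 for Tef and 0.87 ± 0.30 for Rora (SE), near those without the covariate. They were 0.87 ± 0.37 for Nr1d1, -1.15 ± 0.36 for Bhlhe40, -0.62 ± 0.32 for Npas2 and -0.61 ± 0.33 for Bhlhe41 (SE), the last against -0.98 without it. Each of these genes kept its sign and had a larger error. In WAT that covariate left 0 higher and 2 lower (4 and 5 unadjusted), and leaving out the muscle-rich arrays of animals 8 and 10 gave the same counts of 0 and 2 (4 and 5 unadjusted).

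**Figure D4:**
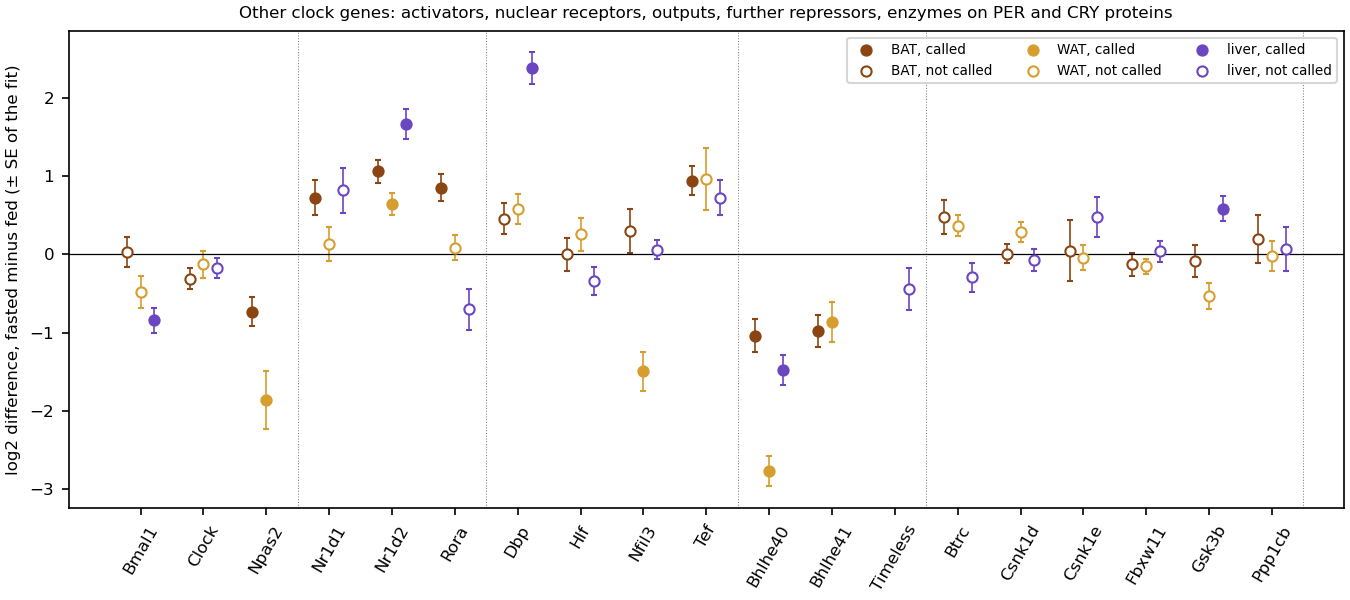
Log2 difference of fasted minus fed (± SE of the limma fit) for the other clock genes tested, in groups by role; filled points passed at an adjusted p under 0.05. Nr1d2 is filled and above 0 in all 3 tissues (0.64 to 1.67; the WAT call ended without the muscle-rich arrays) and Bhlhe40 filled and below 0 in all 3 (-1.04 to -2.78).

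The genes most like each repressor were sought among 10444 named genes by Pearson's r over 24 arrays, after each tissue's mean was subtracted. The arrays share tissues, animals and scaling, so r is a description. This r holds the fed and fasted differences, so like signs of these differences follow largely from the choice and add no observation. For Per2 they were Lgalsl (r = 0.875), Tmcc3 (0.851) and Ephx1 (0.840), the last an epoxide hydrolase. All of them had Per2's signs: Tmcc3 had log2 differences of 0.74 in BAT, 0.90 in WAT and -0.66 in liver, and Ephx1 had 0.85, 0.64 and -0.48. For Per1 they were Ypel3 (0.829), Nfkbia (0.825), the inhibitor of NF-kappa-B, and Carmil1 (0.823). Nfkbia had log2 differences of 0.81, 0.58 and 0.81 in BAT, WAT and liver, all above 0 like those of Per1. For Per3 they were Rnf138 (0.910), a ubiquitin ligase, Enpp2 (0.907), which makes lysophosphatidic acid, and the pseudogene Syncrip-ps2 (0.895). For Cry1 they were Adprs (0.792), Jagn1 (0.747) and Mlx (0.743), the partner of the glucose-sensing factor ChREBP, whose differences were below 0 in all 3 tissues and largest in size in WAT (-1.99). For Cry2 they were Ramp2 (0.880), Kank1 (0.873) and Ciz1 (0.857). Among the repressors themselves, r was 0.723 between Per2 and Cry2, 0.700 between Per1 and Per3, and 0.200 between Per2 and Per3, with Cry1 between -0.260 and -0.016 against the others.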

How the data were processed

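Per the file headers, the deposited intensities are MAS5 signals that the authors computed, 1 per probe set of an Affymetrix rat array; which version is not given here. Per the labels' protocols, 2 µg of total RNA went into each labelling. From these, arrays were brought to equal 2% trimmed means and log2(signal + 1.9) was taken; 1.9 is the 10th percentile of all signals. The 57 control probe sets of 31099 were left out. Those above the 40th percentile of mean log2 signal were tested (18625) with limma 3.58.1 in R 4.3.3, checked on simulated data. The number of arrays limits the precision. P-values set a difference against the spread of arrays within their groups. In the main tissue fits this spread takes no account of which arrays share an animal.

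The genes and lists were chosen with earlier results of these data known. All probe sets of the 5 genes are named; for other clock genes the 3 smallest p-values per tissue, and for likeness the 3 highest r per gene. Symbols come from the platform annotation, updated through gene identifiers to GRCr8. The build of the array's annotation was not used for coordinates.

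Samples with equal animal numbers were taken to come from the same rat, on the series' statement that the tissues came from the rats of each group. No label says so in words. The main tissue fits did not use this pairing, and the animal number was a block only in an alternative. Of 24 pairs of arrays, 7 correlated over 0.1 in their deviations from group means (0.0152 to 0.1973, median 0.0719). Pearson's r between replicate arrays ran from 0.924 to 0.960. Alternatives were the scaling, the pseudocount, the filter, the animal block, scan day, a muscle covariate and leaving out each animal.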

Additional observations from a re-analysis of the deposited data

Results flagged for a closer look

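The fasting difference of Per2 (1368303_at) had opposite signs in fat and liver, with no array of either feeding group overlapping the other in any tissue. Fasted minus fed was 2.49 log2 units larger in BAT than in liver and 2.02 larger in WAT than in liver. This difference between tissues was not tested, since the fasting contrasts were known when the gene was chosen.

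Per3 (1378745_at) had a signal of 32.5 in fed BAT animal 1, far from the 71.8 to 82.7 of the other 3 fed animals. It was the 1 array found to stand apart among 48 groups of 4 arrays. Chance flags about 1 group in 20, so this is no more than chance would give. The fasted BAT arrays of Per3 began at 209, and without that animal the BAT difference was 1.77. The same animal had a signal of 33.2 on the dim Per2 probe set (1378560_at), against 4.80 to 7.75 in the other fed BAT arrays, which was not flagged on the log2 scale.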

How the results depend on the processing

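Of the fasting differences of the repressors, 338 values under an alternative moved by less than the replicate SD and 23 by more, and none of the called tissue differences changed sign apart from Per2 and Cry2 (1372548_at) in fasted arrays alone (Per2 0.031 in BAT minus liver and 0.14 in WAT minus liver, Cry2 0.22 in BAT minus liver). The count of tissue calls in BAT minus WAT was 0 in place of 1 with quantile normalization, with median centring and in fasted arrays alone, and 0 to 1 when 1 animal was left out. In BAT minus liver it was 3 in fasted arrays alone and 4 to 7 with 1 animal left out. With the animal number as a replicate block the counts were 1, 6 and 4, the block adding Cry2 (1369446_at) in BAT minus liver, and it changed no other call. Probe sets without overlap in WAT were 1 higher with median centring, and, with 1 array left out, 3 to 5 higher and 0 to 1 lower; in liver they were 1 to 2 higher. Other clock genes called lower in BAT were 1 with all 24 arrays in one model and 0 with the muscle covariate, which also left 0 higher. In WAT, 2 were higher with all 24 arrays in one model and 2 with scan day as a block, 0 with the muscle covariate and 0 without the muscle-rich arrays, and 1 to 2 with 1 array left out; 2 were lower with the covariate and 2 without the muscle-rich arrays. The dim Per2 probe set had -1.65 in place of -2.76 in liver with a pseudocount of 16. Fewer arrays or a further term in the fit lower the power of some of these alternatives; otherwise the cause was not tested.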
